A study of Mus musculus with 48 samples.

Results

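Skeletal muscle and subcutaneous white adipose tissue (WAT), the peripheral tissues on which insulin acts, were compared in sham-operated mice. The 8 libraries used, of 48 in the series, were the 4 sham libraries of gastrocnemius muscle and the 4 sham libraries of subcutaneous WAT. The members were the 11172 genes listed in both tables, of 12016 in the muscle table and 13413 in the WAT table, joined on the Ensembl gene ID with 1 row per ID. A further 844 genes were listed in the muscle table alone and 2241 in the WAT table alone, and these had no value to compare. All mice were male C57Bl6 with obesity induced by a high fat diet, and all had sham surgery, the control operation for Roux-en-Y gastric bypass (RYGB). After surgery they received a liquid elemental diet, and they were killed after fasting on day 9. No lean or unoperated mice entered the comparison, so obesity, surgery, liquid diet and fasting were shared by every library. The labels number the samples 1 to 4 in each tissue and do not say whether the same number marks the same mouse, so the p-values measure the spread between these samples.

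Skeletal muscle burns glucose, glycogen and fatty acids to power contraction, and its fibres are filled with sarcomeres, the repeated units of actin and myosin filaments. The gastrocnemius is made mainly of fast fibres, which rely on glycogen breakdown and glycolysis, with fewer slow fibres that rely on mitochondria. White adipocytes store triglyceride in a single large lipid droplet, release it as fatty acids and glycerol during fasting, and secrete hormones such as leptin and adiponectin. Insulin acts on both tissues through the same receptor and kinase cascade, which brings the glucose transporter GLUT4 to the cell surface.

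Values were CPM, the reads of a gene scaled to a fixed total of reads per library. The 10 most abundant genes held 26.0 to 30.1% of the CPM of a sham muscle library and 8.5 to 11.8% of a sham WAT library, and the median gene listed in both tables had 14.1 to 17.5 CPM in muscle and 36.8 to 37.6 CPM in WAT. The median difference of all 11165 genes tested was -1.13 on the log2(CPM + 1) scale (positive: higher in muscle), and a gene at that value had the difference of the median gene. After each library was divided by its median ratio to the mean profile (median-ratio scaling), that median was -0.01. Both versions are given wherever the direction depended on the scaling. Depth is unknown, since the tables hold no read totals. No sequencing lane held sham libraries of both tissues, WAT was frozen in liquid nitrogen and muscle was kept in RNAlater, so tissue, table, lane and storage cannot be told apart. In bulk tissue, fewer cells of a type and less RNA per cell cannot be told apart either.

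The cell markers matched the labelled tissues. The 5 myofibre markers listed in both tables summed to 78541.9 to 97673.9 CPM in muscle and 13.4 to 96.5 CPM in WAT. The 7 adipocyte markers summed to 16301.8 to 23906.9 CPM in WAT and 152.3 to 1178.5 CPM in muscle. Single libraries set the upper end of both low ranges. Sham muscle replicate 3 held 1178.5 CPM of adipocyte markers against 152.3 to 233.1 CPM in the other 3 muscle libraries, and sham WAT replicate 2 held 96.5 CPM of myofibre markers against 13.4 to 19.1 CPM in the other 3 WAT libraries. Their part in the differences below was not tested, and the counts of a list without these libraries are given beside it where they differ from those with all 8. Keratinocyte genes, which belong to skin, also varied within WAT: Krt5 had 51.9, 30.0, 72.1 and 1.0 CPM in replicates 1 to 4. All 6 B cell markers and all 6 T cell markers were listed in the WAT table alone, where they reached the listing limit of 1 CPM in 4 libraries mainly through the RYGB libraries of that table. Each set held 0.0014% or less of the CPM of a sham WAT library, so their listing is no difference between the sham tissues.

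Most genes differed between the tissues. Of 11165 genes tested, 8581 were differentially expressed genes (DEGs), defined here by an adjusted p-value under 0.05 (limma, Benjamini-Hochberg) and a fold change of at least 1.5. As deposited, 1294 DEGs (11.6% of the genes tested) were higher in muscle and 7287 (65.3%) were higher in WAT, so 15.1% of the DEGs were higher in muscle. With median-ratio scaling the split was nearly even, with 3699 DEGs (33.1%) higher in muscle and 3829 (34.3%) higher in WAT, which puts 49.1% of the DEGs higher in muscle. At least 4-fold differences were found in 382 genes (3.42%) higher in muscle and 3096 (27.7%) higher in WAT. With median-ratio scaling these counts were 987 and 1137. The 20 gene lists on fuel use, contraction, mitochondria and matrix had 369 members, of which 318 genes were tested. Of these, 114 were DEGs higher in muscle, 157 were DEGs higher in WAT and 47 were neither. With scaling the counts were 157, 115 and 46, and 2 genes, Acadm and Hibadh, were called in opposite directions by the 2 versions. The counts of each list below stand against 11.6% of all genes higher in muscle and 65.3% higher in WAT (33.1% and 34.3% with scaling).

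**Figure D1:**
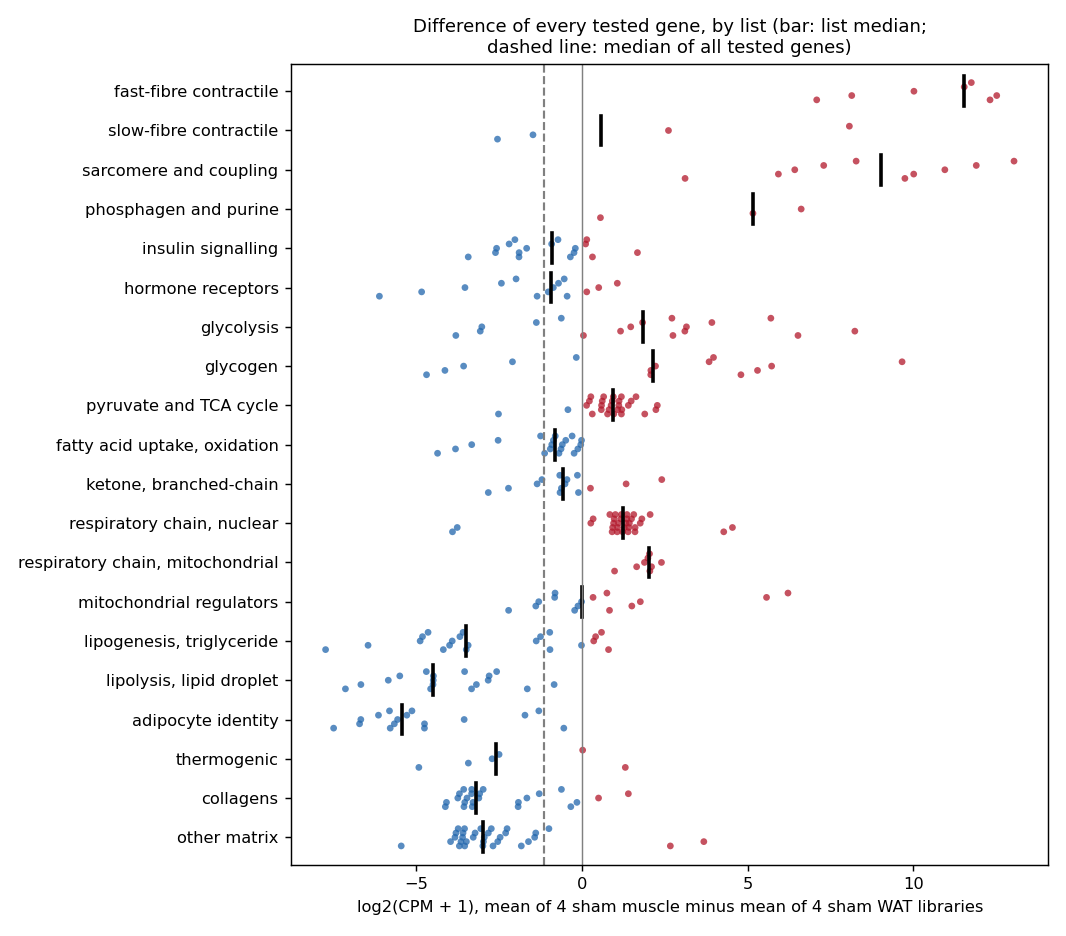
Difference of every tested gene in each list, as log2(CPM + 1) in 4 sham muscle libraries minus 4 sham WAT libraries, with a bar at each list median and a dashed line at the median of all tested genes (-1.13). The medians of the contractile and respiratory lists lay to the right of the dashed line. Those of the lipid droplet, adipocyte and matrix lists lay to its left. Single members, such as Tpm3, Cox6a1, Thbs4 and Fmod, lay on the other side of the line from their list median. The medians of the insulin signalling, hormone receptor, fatty acid oxidation, ketone and branched-chain amino acid, and mitochondrial regulator lists changed sign with median-ratio scaling.

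Among genes in both tables, the 5 with the largest differences toward muscle all encode parts of the sarcomere. These genes, and those toward WAT below, were chosen from DEGs with no overlap between the tissues. The same lack of overlap held for 86.4% of all genes tested. Genes listed in the muscle table alone, such as Myh4, could not enter. Ttn encodes titin, the giant spring of the sarcomere, and had 22713.6, 28757.0, 22413.2 and 15929.3 CPM in muscle replicates 1 to 4 and 0.2, 17.7, 0.9 and 0.1 CPM in WAT replicates 1 to 4. Every muscle library lay far above every WAT library, and WAT replicate 2 was the highest of its group. The log2 difference was 13.04 ± 0.80 (SE, n = 4 per tissue), with an adjusted p of 2.1e-07. In sham WAT only replicate 2 reached 1 CPM of Ttn, so the gene met the listing limit mainly through RYGB WAT. The other sham WAT values lay below the pseudocount of 1 CPM. The size of the Ttn difference, and its rank, therefore depend on that pseudocount. Acta1, the skeletal muscle actin, had 27540.8, 34335.8, 33172.8 and 27015.5 CPM in muscle and 5.2, 43.9, 5.0 and 1.4 CPM in WAT, a log2 difference of 11.90 ± 0.73 with an adjusted p of 2.17e-07. WAT replicate 2 again stood highest in WAT. The differences of the other three were 12.51 ± 0.52 for Tnnt3, the fast troponin T, 12.31 ± 0.32 for Mybpc2, the fast myosin binding protein C, and 11.75 ± 0.34 for Mylpf, the fast regulatory myosin light chain. Tnnt3 had 16782.2 to 22417.1 CPM in muscle and 0.8 to 11.2 CPM in WAT. Without WAT replicate 2 the differences were 13.98 for Ttn, 13.13 for Tnnt3 and 12.73 for Acta1.

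Toward WAT, the largest differences were those of Pck1, Nnat, Cidec, Adipoq and Lep. Pck1 encodes the cytosolic phosphoenolpyruvate carboxykinase, which in adipocytes supplies the glycerol backbone for re-esterification of fatty acids, and had 1106.1, 828.9, 2871.4 and 2579.1 CPM in WAT and 1.6, 2.6, 54.4 and 5.4 CPM in muscle. Muscle replicate 3 was well above the other muscle libraries and still lay far below every WAT library. The log2 difference of Pck1 was -7.73 ± 0.89, with an adjusted p of 1.77e-05. Cidec, which fuses lipid droplets, had 1623.8, 1199.4, 1830.6 and 2187.4 CPM in WAT and 2.6, 7.1, 78.0 and 7.7 CPM in muscle, a log2 difference of -7.13 ± 0.79. Adipoq, the adiponectin gene, had 2075.2, 1692.4, 2146.0 and 2153.1 CPM in WAT and 5.3, 9.1, 119.0 and 16.8 CPM in muscle, a difference of -6.71 ± 0.76 with an adjusted p of 1.69e-05. In all of these genes the high muscle value was that of replicate 3, the library with the highest adipocyte marker sum. Lep, the leptin gene, had 789.1, 1754.4, 644.0 and 1239.7 CPM in WAT and 2.2, 3.5, 99.8 and 6.1 CPM in muscle, a difference of -6.67 ± 0.96. The difference of Nnat, which encodes the small membrane protein neuronatin, was -7.49 ± 1.04. Without muscle replicate 3 the differences were -8.69 for Pck1, -8.71 for Nnat, -8.05 for Cidec, -7.59 for Adipoq and -7.78 for Lep, and without muscle replicate 2 that of Nnat was -6.85.

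**Figure D2:**
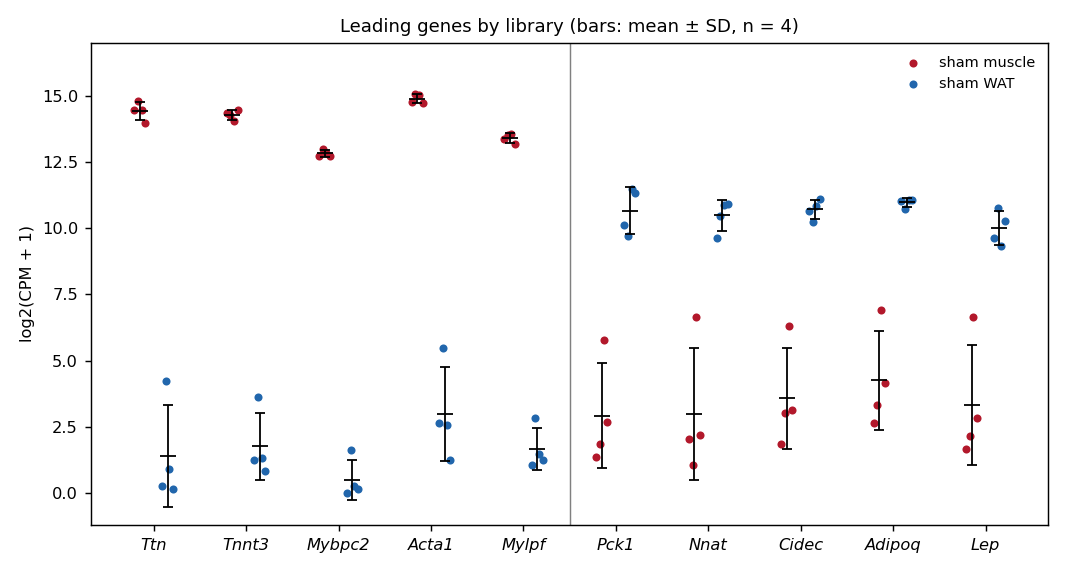
Log2(CPM + 1) of the 5 genes most in favour of muscle (left) and the 5 most in favour of WAT (right) in each sham library, with the mean ± SD of 4 libraries per tissue. The 10 genes were chosen among DEGs with no overlap between the tissues, and 86.4% of all genes tested had no overlap. The raised points are WAT replicate 2 for the muscle genes and muscle replicate 3 for the WAT genes.

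Promoter windows of 4 of these genes are shown, 1 structural and 1 actin gene of the sarcomere and 2 adipocyte hormones, as examples of both tissues. They were chosen after the windows had been searched and include the 3 leading genes with a marked motif. The windows of the leading genes Mybpc2, Mylpf, Pck1, Nnat and Cidec held none and are not printed. Each window covers 250 bases before to 50 bases after the annotated start and is written 5′ to 3′ on the gene's strand, from RefSeq on GRCm38.p6. Ttn lies at chr2:76982498-76982797 (minus strand), Acta1 at chr8:123894726-123895025 (minus), Adipoq at chr16:23146286-23146585 (plus) and Lep at chr6:29059971-29060270 (plus). Capitals mark the MEF2 box in Ttn, the CArG box and then TATAAA in Acta1, and TTGCGCAA, a palindromic C/EBP-type site, in Lep. No marked motif was found in the Adipoq window.
Ttn: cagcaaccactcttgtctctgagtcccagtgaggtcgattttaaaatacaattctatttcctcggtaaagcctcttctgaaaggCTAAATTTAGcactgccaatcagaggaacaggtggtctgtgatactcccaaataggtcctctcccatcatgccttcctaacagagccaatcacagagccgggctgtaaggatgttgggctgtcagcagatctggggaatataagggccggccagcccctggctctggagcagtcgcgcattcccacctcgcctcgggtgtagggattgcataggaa
Acta1: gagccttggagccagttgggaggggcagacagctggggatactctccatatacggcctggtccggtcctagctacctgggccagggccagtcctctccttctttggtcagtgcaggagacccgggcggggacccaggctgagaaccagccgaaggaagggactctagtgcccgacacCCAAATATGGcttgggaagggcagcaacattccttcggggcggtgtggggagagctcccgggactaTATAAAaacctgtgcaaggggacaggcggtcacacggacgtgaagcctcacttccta
Adipoq: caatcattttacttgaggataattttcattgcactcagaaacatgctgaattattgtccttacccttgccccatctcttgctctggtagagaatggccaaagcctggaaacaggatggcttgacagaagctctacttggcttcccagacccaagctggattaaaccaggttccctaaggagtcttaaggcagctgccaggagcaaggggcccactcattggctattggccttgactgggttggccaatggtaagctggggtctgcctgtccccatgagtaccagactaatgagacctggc
Lep: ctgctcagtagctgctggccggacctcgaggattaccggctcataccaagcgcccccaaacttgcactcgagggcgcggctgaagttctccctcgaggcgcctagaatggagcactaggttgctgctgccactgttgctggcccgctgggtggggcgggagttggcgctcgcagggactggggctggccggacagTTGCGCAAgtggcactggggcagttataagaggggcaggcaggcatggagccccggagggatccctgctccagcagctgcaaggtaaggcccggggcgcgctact
The CArG box and the MEF2 box were searched on both strands, TATAAA and TTGCGCAA on the gene strand. TTGCGCAA was added after the Lep window had been seen. E-boxes (CANNTG, searched on both strands) overlapped the ends of TTGCGCAA in Lep, and no other marked motif overlapped one. Over all 32851 windows, 1.63% held a CArG box, 3.19% a MEF2 box, 8.32% TATAAA, 0.183% TTGCGCAA and 72.3% an E-box. Of the 17 contractile DEGs higher in muscle, 13 had a window (16 windows in all). A CArG box was in 4 windows of 3 genes (Acta1, Dmd and Ldb3), a MEF2 box in 2 windows (Dmd and Ttn) and TATAAA in 1 (Acta1). Of the 32 adipocyte and lipid droplet DEGs higher in WAT, 26 had a window (37 windows). None of these held a CArG or MEF2 box, 3 held TATAAA (Cebpa, Cebpb and Rbp4) and 1 held TTGCGCAA (Lep). These are matches of letters within the windows, and binding was not measured.

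Fast contractile genes took a large share of the muscle reads. Of 14 fast fibre genes, 7 were in both tables and all 7 were DEGs higher in muscle, with a median log2 difference of 11.53. The other 7 were listed in the muscle table alone: the myosin heavy chains Myh1, Myh2 and Myh4, the Z-disc protein Actn3, the troponin Tnnc2, the calcium buffer Pvalb and the calcium pump Atp2a1. Myh4, the fastest heavy chain, had 65311.4, 88860.2, 69138.7 and 63519.5 CPM, the most reads of any gene in each of the sham muscle libraries. Together the 14 genes held 20.2 to 23.6% of the muscle CPM. Myh1 and Myh2 varied more than Myh4 between the muscle libraries. Myh1 had 623.8, 806.2, 2604.0 and 1302.3 CPM, and replicate 3 was the highest.

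Slow fibre genes were far less uniform. Of 10, only 4 were in both tables, and they were divided. Mybpc1, the slow myosin binding protein C, had 439.4, 242.9, 2481.1 and 704.2 CPM in muscle and 0.4, 7.8, 1.1 and 0.4 CPM in WAT, a difference of 8.07 ± 0.77 (7.43 without muscle replicate 3 and 8.68 without WAT replicate 2). Casq2, a calsequestrin of the slow and cardiac type, was also higher in muscle, by 2.61 ± 0.33. Tpm3, a tropomyosin gene that also has non-muscle products, had 52.1, 19.4, 13.9 and 8.5 CPM in muscle and 97.6, 119.8, 118.0 and 125.4 CPM in WAT. The WAT values of Tpm3 lay above all muscle values, and the log2 difference was -2.55 ± 0.44 with an adjusted p of 3.27e-04. Atp2a2, the calcium pump of slow fibres and of non-muscle cells, differed by -1.48 ± 0.38 as deposited (adjusted p of 0.00464) and by -0.27 with median-ratio scaling, when it was no DEG. The 6 genes listed in the muscle table alone included Myh7, the slow myosin heavy chain, with 163.1, 43.8, 1.1 and 2.4 CPM in replicates 1 to 4. Myl2, Myl3, Tnnt1, Tnni1 and Tnnc1 were also highest in muscle replicate 1, at 38.7 to 78.6 CPM, against 0.8 to 35.4 CPM in the other muscle libraries.

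Sarcomere and excitation-contraction genes shared by fast and slow fibres followed the fast set. All 10 of the 16 that were in both tables were DEGs higher in muscle, with a median log2 difference of 9.01. They ranged from Ttn (13.04) to Dmd, the dystrophin gene, at 3.11 ± 0.19, with 257.5 to 435.6 CPM in muscle and 27.9 to 46.2 CPM in WAT. Ryr1, the calcium release channel of the sarcoplasmic reticulum, had 4936.3 to 6097.2 CPM in muscle and 2.5 to 9.6 CPM in WAT. Actn2, Myot, Myoz1, Tcap, Xirp2 and Sgca were listed in the muscle table alone. Among 7 genes of phosphate transfer and oxygen storage, Ckm (muscle creatine kinase, 19249.9 to 22760.0 CPM), Ckmt2, Ampd1 and Mb (myoglobin, 306.1 to 935.3 CPM) were listed in the muscle table alone. Ak1, an adenylate kinase, had 1759.4 to 1861.1 CPM in muscle and 15.6 to 19.1 CPM in WAT, 98.0-fold apart, and Adssl1, the muscle adenylosuccinate synthase, was 35.7-fold higher in muscle. The creatine transporter Slc6a8 differed by 0.56 ± 0.16, no DEG as deposited, and was a DEG higher in muscle with scaling (1.76).

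Genes of the insulin cascade lay near the median of all genes. Of 17 genes, 1 was a DEG higher in muscle, 10 were DEGs higher in WAT and 6 were not DEGs, with a median of -0.91 against -1.13 over all genes. With scaling the counts were 7, 5 and 5, and the median turned to 0.29. Over all genes tested, 11.6% were DEGs higher in muscle and 65.3% higher in WAT (33.1% and 34.3% with scaling). Slc2a4 encodes GLUT4 and had 543.6, 447.8, 496.0 and 520.2 CPM in muscle and 221.2, 152.4, 114.1 and 154.3 CPM in WAT. The muscle values lay above all WAT values, 3.19-fold on average, with a log2 difference of 1.67 ± 0.18 and an adjusted p of 1.04e-05. Insr, the insulin receptor, had 125.0, 123.2, 130.8 and 135.5 CPM in muscle and 199.1, 173.2, 256.2 and 231.4 CPM in WAT, a difference of -0.72 ± 0.12 as deposited and 0.48 with scaling, when it was no DEG.

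Pik3r1, the regulatory subunit of PI 3-kinase, had 56.4, 39.1, 83.7 and 39.2 CPM in muscle and 409.3, 430.4, 227.0 and 267.1 CPM in WAT, 6.10-fold higher in WAT (-2.61 ± 0.29). Foxo1, a transcription factor that insulin holds out of the nucleus, differed by -2.57 ± 0.11 and stayed a DEG with scaling (-1.39), as did Akt1 (-1.90, scaled -0.70). The 6 genes that were no DEGs as deposited were Irs1, Pik3ca, Pdpk1, Akt2, Tbc1d1 and Tbc1d4, and with scaling all 6 were DEGs higher in muscle (0.85 to 1.52).

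Of 19 receptors for other hormones, 14 were tested, with 1 DEG higher in muscle, 9 higher in WAT and 4 that were neither as deposited, and 5, 5 and 4 with scaling. The share higher in WAT as deposited was near that of all genes tested (65.3%), and the median was -0.94 as deposited and 0.24 with scaling. The counts were 2, 10 and 2 without muscle replicate 3 and WAT replicate 2. Npr3, the clearance receptor for natriuretic peptides, had 6.0, 4.8, 97.9 and 7.0 CPM in muscle and 554.2, 1203.5, 865.7 and 1260.6 CPM in WAT, 69.1-fold higher in WAT (134.5-fold without muscle replicate 3). Muscle replicate 3 again stood apart from the other muscle libraries. Adora1, the antilipolytic adenosine receptor, had 98.6 to 123.5 CPM in WAT and 1.5 to 7.0 CPM in muscle, a difference of -4.84 ± 0.33. Adipor1, an adiponectin receptor, was the one receptor higher in muscle as deposited, with 377.9 to 425.7 CPM against 169.7 to 208.6 CPM in WAT (1.07 ± 0.09). Adrb1, Adrb3, Hcar1 and Hcar2 were listed in the WAT table alone, and Adrb3, the beta-adrenergic receptor of adipocytes, had 405.5, 155.3, 101.5 and 96.3 CPM. Thrb, a thyroid hormone receptor, and Esr1, an oestrogen receptor, were among the 4 that were no DEGs as deposited and were DEGs higher in muscle with scaling (0.64 and 0.74).

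Genes of glycogen breakdown and glycolysis were mostly higher in muscle, apart from the isoforms of other tissues. Of 20 glycolytic genes, 17 were tested, of which 11 were DEGs higher in muscle, 5 higher in WAT and 1 neither (median 1.83). These counts were 12, 3 and 2 with scaling (median 3.03). The summed CPM of the tested genes were 24026.6 to 26039.3 in muscle and 1713.1 to 2741.3 in WAT. Eno3, the muscle enolase, had 5001.2, 6103.1, 5859.9 and 4901.2 CPM in muscle and 14.4, 17, 20.8 and 16.7 CPM in WAT, 301-fold apart (8.23 ± 0.13). Pfkm, the muscle phosphofructokinase, had 2566.3 to 3851.8 CPM in muscle and 27.8 to 40.1 CPM in WAT, 91.6-fold apart. The 5 genes higher in WAT were Hk1 (-3.07), Pfkl (-3.02), Pfkp (-3.80), Eno1 (-1.38) and the lactate and pyruvate transporter Slc16a1 (-0.62), the last of which was at 0.57 with scaling and no DEG. Ldhb was no DEG as deposited (0.05 ± 0.33) and was a DEG higher in muscle with scaling (1.21). Without muscle replicate 3 and WAT replicate 2 the counts were 10, 5 and 2. Gapdh, Pgk1, Eno1 and Pgam1 have near-identical copies elsewhere in the genome, and Gapdh was at 4.5 to 22 CPM in the 8 libraries, so the levels of these genes are uncertain.

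Of 15 glycogen genes, 14 were tested, of which 9 were DEGs higher in muscle, 4 were DEGs higher in WAT and 1, the branching enzyme Gbe1, was neither (median 2.15). These counts were 10, 4 and 0 with scaling (median 3.36). Pygm, the muscle glycogen phosphorylase, had 8572.0, 8895.9, 6774.1 and 7910.4 CPM in muscle and 7.2, 14.1, 8.0 and 7.6 CPM in WAT, a log2 difference of 9.66 ± 0.19 with an adjusted p of 1.19e-09. Pygl, the liver form, had 1.2, 3.3, 9.9 and 3.2 CPM in muscle and 185.8, 134.5, 87.8 and 84.1 CPM in WAT, a difference of -4.69 ± 0.45. The brain form Pygb went the same way as Pygl (-4.13 ± 0.34). The kinase that switches phosphorylase on was divided in the same manner by subunit form, with Phka1 at 5.72 and Phkg1 at 5.30 and with Phka2 at -3.57 and Phkg2 at -2.10. Of the synthesis genes, Gys1, Gyg and Ugp2 were higher in muscle too, with Gys1, the muscle glycogen synthase, at 375.5 to 436.1 CPM against 75.7 to 164.5 CPM in WAT (2.08 ± 0.22). Ppp1r3a, the glycogen-targeting subunit of protein phosphatase 1 in muscle, was listed in the muscle table alone, at 635.0 to 884.3 CPM.

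Genes of pyruvate oxidation and the tricarboxylic acid cycle were mostly higher in muscle, by a smaller step than those of glycolysis. All 28 genes were tested, and 21 were DEGs higher in muscle, 1 was a DEG higher in WAT and 6 were neither, with a median of 0.93 (27, 1 and 0, with a median of 2.14, after scaling). Pdk2, a kinase that switches pyruvate dehydrogenase off, had 336.1 to 416.1 CPM in muscle and 55.4 to 92.0 CPM in WAT (2.27 ± 0.15), and Pdp1, the phosphatase that switches it on, differed by 2.23 ± 0.12. Cs, citrate synthase, had 832.9, 780.4, 854.1 and 743.2 CPM in muscle and 589.0, 388.5, 278.1 and 324.0 CPM in WAT, a difference of 1.08 ± 0.21. WAT replicate 1 was the highest WAT library for Cs and lay below every muscle library. The 1 gene higher in WAT was Pcx, pyruvate carboxylase, which feeds oxaloacetate to fatty acid synthesis in adipocytes, with 109.9, 76.9, 111.9 and 101.1 CPM in muscle and 1293.4, 457.3, 386.8 and 464.4 CPM in WAT. Pdk4, induced by fasting, overlapped between the tissues (250.6 to 382.5 CPM in muscle, 58.8 to 332.0 CPM in WAT). The others that were no DEGs as deposited were Mpc1, Idh2, Dlst, Suclg2 and Mdh1. Without muscle replicate 3 and WAT replicate 2 the counts were 18, 1 and 9.

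Respiratory chain genes of both genomes were mostly higher in muscle. Of 33 nuclear genes, 32 were tested, of which 28 were DEGs higher in muscle, 2 higher in WAT and 2, Cox4i1 and Cox7a2, neither (median 1.25, scaled 2.46). With scaling Cox4i1 and Cox7a2 were DEGs higher in muscle too. The summed CPM of the tested nuclear genes were 9014.8 to 10346.0 in muscle and 3781.8 to 6015.7 in WAT. All 8 tested genes of mitochondrial DNA were DEGs higher in muscle, with a median of 2.01 (scaled 3.23). mt-Nd1, a complex I subunit, had 16012.6, 12405.9, 11297.5 and 14952.9 CPM in muscle and 4270.1, 3385.5, 2551.7 and 2693.3 CPM in WAT, 4.29-fold apart. The tested mitochondrial genes summed to 70541.9 to 92756.6 CPM in muscle and 16549.6 to 30238.1 CPM in WAT, with no overlap. Replicate 1 was the highest library of WAT for both the nuclear and the mitochondrial set. mt-Atp6, mt-Co2 and mt-Co3 had a few CPM or less where listed, far below mt-Nd1, and their values are uncertain, since copies of these genes lie in nuclear DNA.

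Subunits of cytochrome c oxidase with a heart and muscle form made the exceptions. Cox7a1, the muscle form of subunit 7a, had 95.7, 65.3, 87.8 and 95.9 CPM in muscle and 7.1, 2.3, 0.9 and 2.7 CPM in WAT, a difference of 4.54 ± 0.37. Cox8b, the muscle form of subunit 8, had 146.8 to 203.6 CPM in muscle and 2.3 to 26.9 CPM in WAT (4.28 ± 0.55). Cox6a1 and Cox8a, the forms of other tissues, were the 2 nuclear genes higher in WAT, at -3.90 ± 0.22 and -3.76 ± 0.21. Cox6a1 had 8.2, 7.9, 16.2 and 8.4 CPM in muscle and 198.4, 156.1, 136.4 and 153.9 CPM in WAT, and its muscle counterpart Cox6a2 was listed in the muscle table alone at 402.8 to 495.5 CPM.

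Among regulators of mitochondrial content the split depended on the scaling, with 6 DEGs higher in muscle, 5 higher in WAT and 4 that were neither among the 15 tested of 17 as deposited, and 10, 1 and 4 with median-ratio scaling. The median was -0.01 as deposited, 0.26 when the shared genes were scaled to the same total and 1.07 with median-ratio scaling. As deposited, 11.6% of all genes tested were DEGs higher in muscle and 65.3% higher in WAT, with a median of -1.13. With median-ratio scaling these shares were 33.1% and 34.3%. Prkag3 and Prkaa2, subunits of the energy sensor AMPK, led toward muscle, at 6.22 ± 0.36 and 5.57 ± 0.20. Prkaa1, the other catalytic subunit, had 17.7 to 24.5 CPM in muscle and 90.7 to 102.6 CPM in WAT (-2.21 ± 0.10). Ppargc1a, the coactivator PGC-1α, had 38.5, 31.8, 44.0 and 34.4 CPM in muscle and 18.1, 9.5, 8.6 and 7.1 CPM in WAT, a difference of 1.76 ± 0.24. Sirt1, a deacetylase, differed by -1.39 ± 0.11 as deposited and by -0.24 with scaling. Ppargc1b, Tfb2m, Ppara and Sirt3 were no DEGs as deposited.

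**Figure D3:**
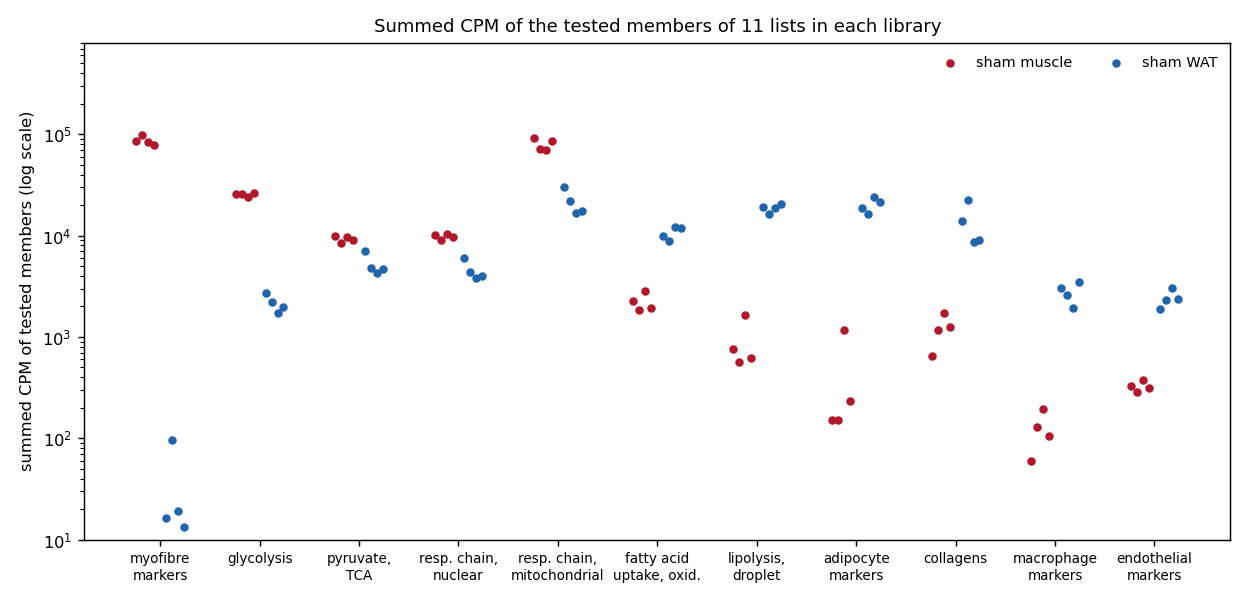
Summed CPM (log scale) of the tested members of 11 lists in each of the 4 sham muscle and 4 sham WAT libraries. The tissues did not overlap in any of the 11 sums, with the closest pair in the pyruvate and tricarboxylic acid cycle list (8483.9 CPM in the lowest muscle and 7018.5 CPM in the highest WAT library).

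For fatty acid oxidation the direction of the median depended on the scaling. Of 21 genes, 19 were tested, and as deposited 0 were DEGs higher in muscle (11.6% of all genes tested), 13 were DEGs higher in WAT, a share near the 65.3% of all genes, and 6 were neither, with a median of -0.80 against -1.13 over all genes. Without muscle replicate 3 and WAT replicate 2 the counts were 0, 14 and 5. With scaling the counts were 7, 4 and 8, and the median turned to 0.40. The 4 genes higher in WAT in both versions act before the mitochondrial matrix: Cd36 and Slc27a1 take up fatty acids, Acsl1 joins them to coenzyme A and Cpt1a passes them to carnitine. Cd36 had 285.7, 209.0, 522.5 and 210.1 CPM in muscle and 4449.2, 4772.9, 7758.6 and 7091.4 CPM in WAT, 20.5-fold higher in WAT (-4.36 ± 0.32). Cpt1a was 14.1-fold higher in WAT (-3.81 ± 0.22), while its muscle counterpart Cpt1b was listed in the muscle table alone at 4.1 to 7.9 CPM. Fabp3, the fatty acid binding protein of heart and muscle, was also listed in the muscle table alone, at 22.8 to 53.8 CPM.

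Enzymes of the oxidation spiral itself lay near the middle. Acadm, the medium-chain dehydrogenase, had 155.4 to 208.4 CPM in muscle and 222.3 to 303.2 CPM in WAT, and its difference was -0.59 as deposited and 0.62 with scaling, a DEG each time. Its deposited difference was under 1.5-fold without muscle replicate 2 or 4 or without WAT replicate 1, 2 or 4 (-0.57 to -0.52). Slc25a20, Acadvl, Hadha, Hadhb, Eci1 and Etfdh were no DEGs as deposited (-0.49 to -0.01) and were DEGs higher in muscle with scaling (0.71 to 1.19). Hadhb is among the genes with near-identical copies.

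Of 14 genes of ketone body and branched-chain amino acid use, 2 were DEGs higher in muscle, 7 higher in WAT and 5 neither, with a median of -0.56 (8, 2 and 4, with a median of 0.64, after scaling). As deposited, the share higher in WAT was below the 65.3% of all genes tested. The share higher in muscle was near their 11.6%, and the median lay above their -1.13. Bckdk, the kinase that switches branched-chain ketoacid dehydrogenase off, was higher in muscle, with 126.3 to 157.7 CPM against 50.1 to 74.1 CPM (1.33 ± 0.13), and Bdh1, which oxidises ketone bodies, differed by 2.41 ± 0.40 at levels of 4.6 to 15.6 CPM in muscle. Glul, glutamine synthetase, had 168.2, 76.0, 129.8 and 110.0 CPM in muscle and 730.5, 662.3, 1038.2 and 944.1 CPM in WAT, 7.09-fold higher in WAT, and Bckdhb differed by -2.22 ± 0.18. The 2 genes were DEGs higher in WAT with scaling as well. Oxct1, the enzyme by which tissues outside the liver use ketone bodies, overlapped between the tissues (285.2 to 324.8 CPM in muscle, 208.4 to 306.6 CPM in WAT). It was no DEG as deposited, nor were Acat1, Bckdha, Ppm1k and Mut.

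Genes of lipid synthesis and storage included some of the largest differences toward WAT. Of 21 genes of lipogenesis and triglyceride synthesis, 2 were DEGs higher in muscle, 14 higher in WAT and 5 neither. The share higher in WAT was near the 65.3% of all genes tested, while the median was -3.49 against -1.13 over all genes (5, 12 and 4, with a median of -2.41 against -0.01, after scaling). Without muscle replicate 3 and WAT replicate 2 the counts were 1, 14 and 6. Scd1, the stearoyl-CoA desaturase, had 99.1, 170.4, 3126.9 and 643.8 CPM in muscle and 45882.1, 46075.4, 44186.2 and 21784.3 CPM in WAT, 87.6-fold higher in WAT (53.8-fold without muscle replicate 1 and 170-fold without muscle replicate 3). It took the most reads of any gene in every sham WAT library, and muscle replicate 3 was the highest of its group. Fasn, fatty acid synthase, had 6938.7, 2157.6, 179.2 and 240.4 CPM in WAT and 23.4, 43.5, 151.1 and 75.6 CPM in muscle, a difference of -3.91 ± 1.13 (-2.93 without WAT replicate 1, -4.69 without replicate 3 and -4.55 without replicate 4). The 4 WAT libraries thus differed widely in Fasn, and the lowest of them lay just above the highest muscle library. WAT replicates 1 and 2 were also above replicates 3 and 4 for Acly, Slc25a1, Thrsp and Elovl6. Acacb, the acetyl-CoA carboxylase whose product restrains fatty acid oxidation, and Gpam, which starts glycerolipid synthesis, were the 2 genes higher in muscle, at 0.59 ± 0.21 and 0.80 ± 0.16. The Acacb values overlapped between the tissues, and it was no DEG without muscle replicate 1, WAT replicate 2 or WAT replicate 4 (0.44 to 0.50). Scd2, Me1, Acss2, Gpd1 and Lpin1 were no DEGs.

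Over all genes tested, 65.3% were DEGs higher in WAT and the median was -1.13 (34.3% and -0.01 with scaling). All 17 genes of lipolysis and the lipid droplet were DEGs higher in WAT, with a median of -4.48 (15 with scaling, median -3.27). The 2 that were no DEGs with scaling were Abhd5, the coactivator of the first lipase, and Plin5, the droplet protein of oxidative tissues, which turned from -0.84 to 0.24. Pnpla2, the first triglyceride lipase, had 165.6, 136.6, 180.6 and 126.7 CPM in muscle and 1409.1, 1166.4, 1877.2 and 1756.9 CPM in WAT (-3.33 ± 0.18). Lipe, hormone-sensitive lipase, had 16.7, 14.8, 96.1 and 23.2 CPM in muscle and 1413.7 to 1812.1 CPM in WAT (-5.84 ± 0.50, and -6.43 without muscle replicate 3). Plin1, the coat protein of the adipocyte droplet, was 102-fold higher in WAT (65.2-fold without muscle replicate 1 and 191-fold without muscle replicate 3). Of the 16 adipocyte identity genes, 15 were DEGs higher in WAT, with a median of -5.42 (13 with scaling, median -4.31), and Klf15 was no DEG. Pparg, the master regulator of adipocytes, had 2.6, 3.0, 17.5 and 2.9 CPM in muscle and 200 to 242.5 CPM in WAT, a difference of -5.28 ± 0.47. Car3, a carbonic anhydrase, was abundant in both tissues, with 1867.7 to 2547.0 CPM in muscle and 6140.8 to 9839.6 CPM in WAT (-1.72, scaled -0.50 and no DEG).

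Among 9 thermogenic genes, 6 were tested, of which 1 was a DEG higher in muscle, 4 higher in WAT and 1, Dio2, neither. With scaling the counts were 2, 4 and 0. The share higher in WAT was near the 65.3% of all genes tested. The median was -2.60 against -1.13 over all genes (-1.49 against -0.01 with scaling). Ucp2 had 8.3, 10.2, 19.1 and 7.3 CPM in muscle and 266.4, 274.6, 389.8 and 505.3 CPM in WAT, 30.3-fold higher in WAT, whereas Ucp3, the uncoupling protein of muscle, had 67.5 to 101.4 CPM in muscle and 24.8 to 49.2 CPM in WAT (1.31 ± 0.22). Atp2b4, a plasma membrane calcium pump, was 10.8-fold higher in WAT. Ucp1, the uncoupling protein of brown and beige fat, was listed in the WAT table alone, at 7.8, 14, 0.8 and 15.0 CPM. Sln, a regulator of the sarcoplasmic calcium pump, was listed in the muscle table alone at 0.5 to 7.5 CPM.

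Isoform and paralogue ratios were compared within each library, because such a ratio does not depend on how libraries or tables were scaled, apart from the pseudocount of 1 CPM. Of 26 pairs, 18 had both genes in both tables. In 17 of the 18, the ratio did not overlap between the tissues and the first gene of the pair, listed as the form of muscle, was relatively higher in muscle. Each of these had an exact 2-sided permutation p of 0.0286, the smallest that 4 against 4 libraries allow (70 regroupings), and an adjusted p of 0.0303. The pairs were listed by the form of muscle, so their shared direction is no independent finding. Single genes did not overlap between the tissues in 86.4% of all genes tested. Such a share was not computed for ratios of other gene pairs. The largest shift was that of Pygm to Pygl, whose log2 ratio was 11.93, 11.01, 9.28 and 10.88 in muscle and -4.51, -3.17, -3.30 and -3.31 in WAT, a difference of 14.35. Eno3 to Eno1 (9.61), Pfkm to Pfkl (9.54), Phka1 to Phka2 (9.29) and Cox8b to Cox8a (8.04) followed. Prkaa2 to Prkaa1, the catalytic subunits of AMPK, shifted by 7.78, and Slc25a4 to Slc25a5, the ADP/ATP carriers of the inner mitochondrial membrane, by 7.07.

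The pairs of the insulin cascade shifted less, as did some metabolic pairs. Sucla2 to Suclg2, subunits of succinyl-CoA ligase, had the smallest shift of the 17, at 1.67, and Ldha to Ldhb shifted by 2.67. The log2 ratio of Akt2 to Akt1 was close to its muscle mean of 1.47 ± 0.02 (SD) in every muscle library and -0.37 to 0.19 in WAT, a difference of 1.70, and that of Irs1 to Irs2 shifted by 2.22. Slc2a4 to Slc2a1, the insulin-responsive and the basal glucose transporter, shifted by 3.34. Plin5 to Plin1 had the widest spread within muscle, with ratios of 2.08, -0.18, -2.80 and -1.13, and muscle replicate 3 was the lowest, yet all were above the WAT range of -6.94 to -6.04. Tbc1d1 to Tbc1d4, the Rab GTPase activating proteins that AKT and AMPK phosphorylate, overlapped and had a difference of -0.04 (exact permutation p of 0.886). The number of pairs with no overlap was 17 under each other setting of the sham libraries. The 8 pairs with a gene in 1 table only were not tested, among them Cox6a2 with Cox6a1, Aldoa with Aldoc, Pgam2 with Pgam1, Cpt1b with Cpt1a, Fabp3 with Fabp4, Atp2a1 with Atp2a2, and Ckm with Ckb.

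**Figure D4:**
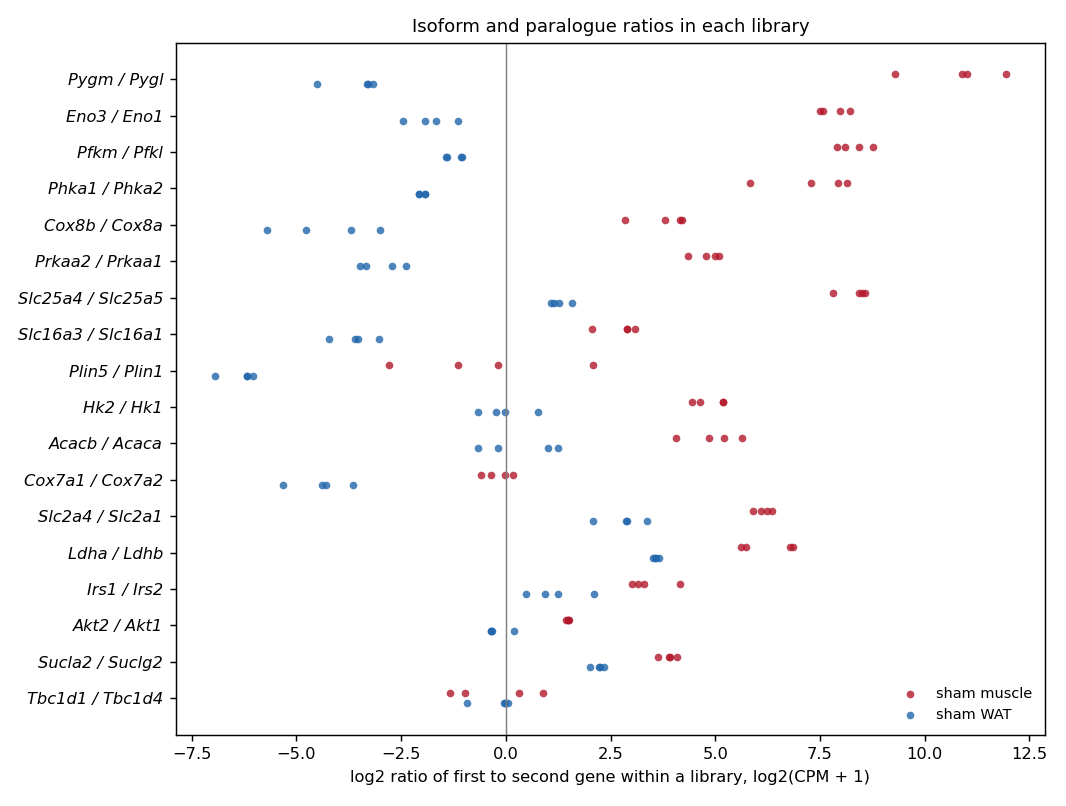
Log2 ratio of the first to the second gene of each tested pair within each library, on the log2(CPM + 1) scale, for 4 sham muscle and 4 sham WAT libraries. The points of the 2 tissues stood apart in 17 of 18 pairs, with muscle to the right, and overlapped in Tbc1d1 / Tbc1d4.

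Matrix genes were mostly higher in WAT, as were 65.3% of all genes tested (34.3% with scaling). The median over all genes was -1.13 (-0.01 with scaling). Of 28 collagen genes, 24 were tested, of which 1 was a DEG higher in muscle, 19 higher in WAT and 4 (Col4a3, Col4a4, Col11a1 and Col13a1) neither, with a median of -3.20 (2, 17 and 5, with a median of -2.04, after scaling). The counts were 1, 18 and 5 without muscle replicate 3 and WAT replicate 2. The tested collagens summed to 648.5 to 1709.8 CPM in muscle and 8662.9 to 22668.4 CPM in WAT. Col1a1, a chain of fibrillar type I collagen, had 57.4, 102.4, 159.2 and 126.6 CPM in muscle and 1628.7, 3322.9, 848.1 and 865.0 CPM in WAT (-3.74 ± 0.46). WAT replicate 2 was the highest library for most fibrillar collagens, and the groups did not overlap for Col1a1. Col4a1, a basement membrane chain, was less spread, with 1516.6 to 2026.3 CPM in WAT and 102.7 to 211.0 CPM in muscle (-3.57 ± 0.21). The largest differences were those of Col14a1, a fibril-associated collagen (-4.12 ± 0.64), and Col18a1, a basement membrane collagen (-4.09 ± 0.27). Col24a1 was the 1 collagen higher in muscle, at 3.8 to 6.8 CPM against 0.4 to 2.1 CPM, and Col22a1, a collagen of the myotendinous junction, was listed in the muscle table alone at 11.6 to 35.6 CPM.

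Of 34 other matrix genes, all 32 tested were DEGs, 30 of them higher in WAT and 2 higher in muscle, with a median of -2.98 (26, 2 and 4 that were neither, with a median of -1.79, after scaling). The share higher in WAT was above that of all genes tested, 65.3% as deposited and 34.3% with scaling. Postn, periostin, had 4.1, 13.6, 47.6 and 9.9 CPM in muscle and 380.0, 962.2, 661.8 and 594.0 CPM in WAT, 43.8-fold higher in WAT (66.1-fold without muscle replicate 3). Sparc, a collagen-binding matricellular protein, was 15.6-fold higher in WAT (-3.96 ± 0.28). The 2 genes higher in muscle were Thbs4, a thrombospondin of tendon and muscle, with 94.2, 36.7, 36.3 and 106.6 CPM in muscle and 2.0 to 5.5 CPM in WAT (3.68 ± 0.40), and Fmod, a tendon proteoglycan, with 184.0, 37.2, 29.5 and 180.8 CPM in muscle and 7.1 to 17.2 CPM in WAT (2.67 ± 0.61). For both genes muscle replicates 1 and 4 were the high libraries. Laminins, nidogens and perlecan of the basement membrane were higher in WAT as well, among them Lama4 (-3.60), Nid1 (-3.54) and Hspg2 (-2.73), while Lama2, the laminin chain of the muscle fibre, was a DEG higher in WAT as deposited, with 76.6 to 144.4 CPM against 41.3 to 59.2 CPM in muscle, and no DEG with scaling (0.20).

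Markers of several other cell types were also higher in WAT, as were 65.3% of all genes tested. All 8 macrophage, 6 endothelial, 6 mesenchymal and 4 Schwann cell markers were DEGs higher in WAT, with medians of -4.43, -2.82, -2.76 and -2.05. With scaling the macrophage and mesenchymal markers stayed DEGs, and 1 endothelial marker (Vwf) and 1 Schwann cell marker did not. The macrophage markers summed to 1940.2 to 3449.1 CPM in WAT and 60.4 to 194.4 CPM in muscle, with muscle replicate 3 the highest, and the endothelial markers to 1878.7 to 3043.2 CPM in WAT and 286.2 to 379.1 CPM in muscle. Their part in the matrix differences was not tested. The 4 satellite cell markers Pax7, Myf5, Myod1 and Myog were listed in the muscle table alone, at 0.6 to 16.8 CPM. All 5 erythroid genes overlapped between the tissues and were DEGs higher in WAT as deposited (median -1.92) and not with scaling (-0.85), and the haemoglobin genes among them share reads with near-identical copies. Of the 3 keratinocyte markers tested, Trp63 was higher in muscle (1.87 ± 0.50), and Perp and Sfn were higher in WAT as deposited.

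The 4 RYGB libraries of each tissue, from other mice of the experiment, gave the same comparison again. In them 8716 genes were DEGs, 1246 higher in muscle and 7470 higher in WAT. Of the sham DEGs, 1033 (79.8%) of those higher in muscle and 6825 (93.7%) of those higher in WAT were DEGs in the same direction, and 36 were DEGs in the other. All 7 tested fast contractile, all 10 sarcomere and all 8 mitochondrial respiratory genes were among those called the same way, but 4 of the 13 called fatty acid oxidation genes and 2 of the 4 called slow fibre genes. The tissue difference itself differed between sham and RYGB in 2560 genes (limma interaction term, adjusted p under 0.05). The RYGB WAT libraries also held B and T cell markers at levels not found in sham WAT, with Ms4a1 at 130.6 to 330.3 CPM against 1.1 to 1.6 CPM, and Krt5 at no more than 0.1 CPM. The RYGB muscle libraries held more of the slow fibre genes, with Myh7 at 248.0 to 1784.8 CPM. The part of these in the 2560 genes was not tested. Of the isoform pairs, 16 of the 17 kept their side, the exception being Ldha to Ldhb, with a difference of 2.67 in sham and -0.28 in RYGB.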

How the data were processed

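Per the labels, total RNA was made into stranded mRNA libraries, and the submitters' processing notes name GRCm38 and HTSeq. The aligner is not given in the sources used here. The authors deposited 1 table per tissue of CPM rounded to 0.1, each gene listed having at least 1 CPM in at least 4 libraries. Repeat lines of a gene (408 in muscle, 379 in WAT) were equal and counted once, and 20 WAT lines without an Ensembl ID were left out. Columns summed to 997761 to 998777 (muscle) and 962798 to 969903 (WAT), so each library was scaled by its own total alone. The WAT table did not list mt-Co2 and mt-Co3.

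Log2(CPM + 1) was compared with limma 3.58.1 (R 4.3.3; empirical Bayes with a trend, 2-sided, Benjamini-Hochberg) in 11165 genes whose mean over the 8 libraries reached 1 CPM, after tests on simulated data. The tables were normalized separately, so scaling alternatives were run. Members and lists were chosen with earlier results of these data known. Genes were named as the 5 largest non-overlapping differences per direction, the 2 largest per direction and list with a mean of 10 CPM or more, pair members, markers, genes that were no DEGs and genes of 1 table. Others were chosen after their values were seen. Ratios were tested by exact permutation (Python 3.11.15). A few listed genes are counted in their lists but not reported here by name.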

Additional observations from a re-analysis of the deposited data

Results flagged for a closer look

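Among the 65 leading genes, 12 of 130 groups of 4 libraries held a value that stood apart from the other 3 by Dixon's criterion for 4 values, and chance gives about 1 in 20 groups. In 5 of the 12 groups the library was sham muscle replicate 3, which was above the others in genes higher in WAT. Npr3 had 97.9 CPM there against 4.8 to 7.0 CPM, Pygb 17.6 CPM against 5.6 to 6.3 CPM, Cox6a1 16.2 CPM against 7.9 to 8.4 CPM, Cox8a 19.5 CPM against 9.8 to 10.5 CPM and Atp2b4 42.9 CPM against 24.0 to 26.4 CPM. Sham WAT replicate 2 was above the others for Mybpc2 (2.1 CPM against 0.0 to 0.2 CPM) and Pygm (14.1 CPM against 7.2 to 8.0 CPM), and below them for Adipoq (1692.4 CPM against 2075.2 to 2153.1 CPM). Sham WAT replicate 1 was above the others for Pcx (1293.4 CPM against 386.8 to 464.4 CPM), mt-Nd6 (127.6 CPM against 55.0 to 58.1 CPM) and Ucp3 (49.2 CPM against 24.8 to 27.6 CPM). Scd1 in sham WAT replicate 4 was below the others, at 21784.3 CPM against 44186.2 to 46075.4 CPM.

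In 8 of the 65 leading genes the tissue difference differed between sham and RYGB libraries (limma interaction term, adjusted over all genes tested). Over all 11165 genes tested, 2560 had an adjusted p under 0.05, a larger share. The 7 genes below are those reported by name. Values are the sham difference minus the RYGB difference on the log2(CPM + 1) scale. Mybpc2 had 2.12 (adjusted p = 0.0069; 12.31 in sham and 10.19 in RYGB) and Eno3 1.03 (adjusted p = 0.0162; 8.23 and 7.2). Mybpc2 had 0.0, 2.1, 0.2 and 0.1 CPM in sham WAT replicates 1 to 4. It thus met the listing limit of 1 CPM in 4 libraries mainly through RYGB WAT, which favours a smaller difference in RYGB. Genes with a slow fibre role had Tpm3 at -2.75 (adjusted p = 0.0122; -2.55 and 0.21), Atp2a2 at -3.14 (adjusted p = 0.00469; -1.48 and 1.67) and Casq2 at -2.67 (adjusted p = 0.00466; 2.61 and 5.28). Idh2, an NADP-linked mitochondrial dehydrogenase, was at -2.42 (adjusted p = 0.00204; -0.42 and 1.99) and Cd36 at -2.02 (adjusted p = 0.0113; -4.36 and -2.33). RYGB muscle also held more Myh7 (248.0 to 1784.8 CPM) than sham muscle (1.1 to 163.1 CPM), and its part in these differences was not tested.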

How the results depend on the processing

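Scaling was the choice that mattered most. With median-ratio scaling the DEGs numbered 7528 and the genes at least 4-fold apart 2124, against 8581 and 3478 as deposited. Medians that turned sign were insulin signalling 0.29, hormone receptors 0.24, fatty acid oxidation 0.40, ketone and branched-chain amino acid use 0.64 and mitochondrial regulators 1.07 (0.26 with the shared genes scaled to the same total). Single genes were followed for 121 members: the leading genes, listed pair members and list members that were no DEGs as deposited. The 23 of these that turned were Idh2 0.78, Akt2 1.01, Slc16a1 0.57, Plin5 0.24, Pik3ca 0.96, Pdpk1 0.85, Thrb 0.64, Esr1 0.74, Gbe1 1.01, Slc25a20 0.90, Acadvl 1.19, Hadha 1.17, Hadhb 0.94, Eci1 0.71, Etfdh 1.08, Acat1 1.07, Bckdha 0.75, Ppm1k 1.04, Mut 0.69, Ppargc1b 1.07, Ppara 0.78, Sirt3 1.01 and Gpd1 1.2. Other list members turned as well, among them Insr 0.48, Acadm 0.62 and Hibadh 0.59. The shift of all genes follows from the scaling itself, which divides the muscle libraries by smaller factors than the WAT libraries.

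The other settings left 8504 to 8636 DEGs and 3379 to 3647 genes at least 4-fold apart with each single library left out, 8139 and 3001 with the shared genes scaled to the same total, 8728 and 3902 with a pseudocount of 0.1, 7122 and 3113 at a mean of at least 10 CPM (fewer genes tested), 8582 and 3478 without a minimum, and 8716 and 3249 in RYGB. Chosen after seeing the data, the fit without muscle replicate 3 and WAT replicate 2 gave 8673 and 3653, and that with WAT replicate 4 as the only WAT library 8528 and 3513, where a lone library is assumed to vary like the muscle group. Deviations of same-numbered libraries were nearly uncorrelated between the tissues (-0.089 to 0.047), and no muscle library matched its own number best. Tissues of the same mouse need not vary together, so it stays unknown whether the same number marks the same mouse. With the replicate block 8572 DEGs and 3478 genes at least 4-fold apart were found. Of 271 called list members, 256 kept the call without each single library. The 15 others were Acacb, Acadl, Acadm, Col12a1, Hibadh, Idh3g, Ivd, Lepr, Mpc2, Pccb, Pdhb, Plin5, Sdhc, Slc16a1 and Srebf1. The depth is unknown, and rounding to 0.1 CPM limits genes near 1 CPM.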
